A study of Macaca mulatta with 12 samples.

Results

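CYP19A1 encodes aromatase, the cytochrome P450 that turns androgens into oestrogens, and its messenger RNA was followed across 12 corpora lutea of rhesus macaques. Its probe set was taken by the gene symbol, and the gene was chosen with earlier results of these data known. Exactly 1 probe set of the array carries the symbol CYP19A1 in the platform annotation, and CYP19A1 is 1 of 14132 genes with a probe set of their own. It was annotated to Entrez gene 678697, which the RefSeq gene table lists as protein coding under the same symbol.

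Each corpus luteum came from a female with normal menstrual cycles and was hybridised to 1 array, with no treatment in any group. The 4 mid-late glands were taken on days 10 to 12 after the LH surge and serve as the baseline. The 4 late functional glands were taken on days 14 to 16 with serum progesterone above 1.5 ng/ml, and the 4 late regressed glands on the same days with serum progesterone below 0.5 ng/ml. The animals' ages are not given in the labels, and day 0 was set from the fall of serum oestradiol, not from LH itself. Serum progesterone assigned the late glands to their groups, so the comparison of these groups starts from a known difference in hormone output.

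The primate corpus luteum secretes oestradiol as well as progesterone. Its granulosa-lutein cells, which descend from the granulosa cells of the follicle, carry most of the aromatase, while the androgen substrate comes from theca-lutein cells that express CYP17A1. LH acting through cyclic AMP, together with the nuclear receptors NR5A1 and NR5A2, is known to drive the ovarian promoter of CYP19A1. Oestradiol made by the gland acts through the receptors ESR1 and ESR2.

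Values are log2 RMA values, so a step of 1 is a doubling. Group values are means ± SD with n = 4 arrays. Differences between groups are log2 differences of means, their SE is from limma, and one is called when the Benjamini-Hochberg adjusted p over all 52707 tested probe sets is below 0.05. A value of 4.64, the 95th percentile of 674 mostly dim probe sets with the prefix NC, marks low signal. Defining luteal genes were bright in the baseline glands, with STAR at 13.52 ± 0.12, INHA at 12.55 ± 0.09 and HSD3B2 at 11.66 ± 0.38. Late regressed arrays 2 and 3 stood apart from the others, scoring 93.2 and 81.6 on the first principal component against -43.0 to 12.6 for the other 10 arrays. Late regressed array 2 also had a log2 difference of 2.52 between 3′ and 5′ control probe sets, where the other 11 arrays lay between 0.46 and 0.70. Many results below, but not all, are therefore given with and without late regressed arrays 2 and 3.

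CYP19A1 was bright in the mid-late and late functional glands and lower in every late regressed gland. Its values in the mid-late glands 1 to 4 were 12.12, 10.84, 11.85 and 11.76. In the late functional glands they were 11.95, 12.08, 11.59 and 11.38. In the late regressed glands they were 10.32, 7.15, 7.43 and 9.33. Every late regressed value thus lay below every value of the other 8 arrays, while the mid-late and late functional values overlapped. Even the dimmest gland, late regressed 2, stood 2.50 above the low-signal level, so no value was at low signal. These are whole glands, so fewer aromatase-bearing cells and less transcript per cell cannot be told apart.

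**Figure D1:**
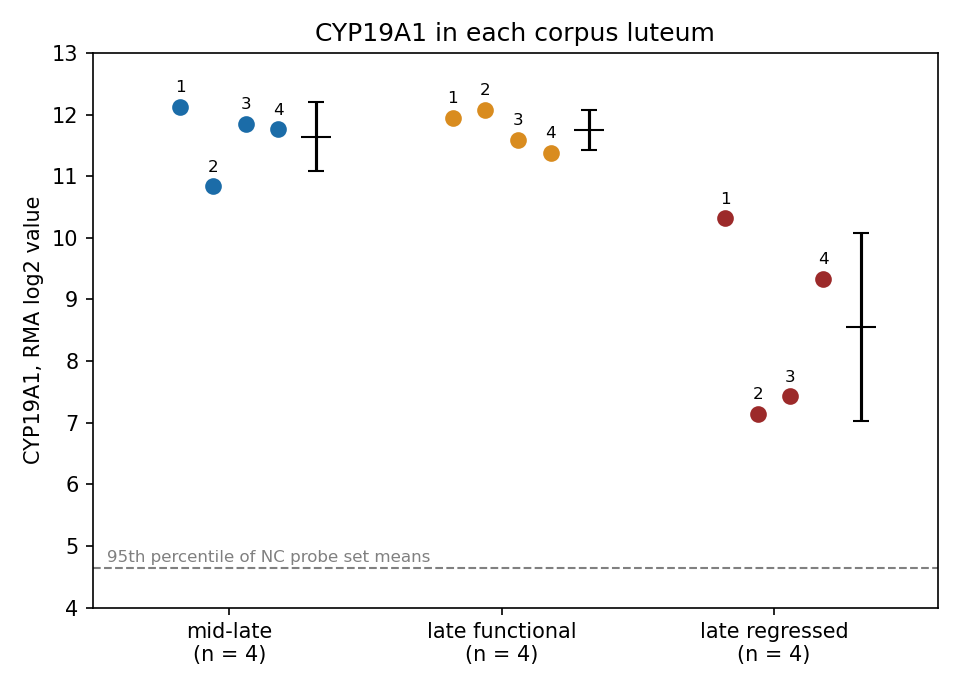
CYP19A1 log2 value (vertical axis) in each corpus luteum, by group (horizontal axis); points are arrays with their number, the bar beside them is the group mean with its SD (n = 4), and the dashed line is the low-signal level of 4.64. The 4 late regressed glands lie between 7.15 and 10.32, below all other glands, and their spread is the widest.

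The order of the group means was late functional at 11.75 ± 0.32, mid-late at 11.64 ± 0.56 and late regressed at 8.56 ± 1.52. The first 2 did not differ beyond their spread. limma's F test for any difference among the 3 groups gave an adjusted p of 0.0222, a call shared by 6.65% of the 14132 genes. Leaving out mid-late array 1 (adjusted p = 0.0560), mid-late array 3 (adjusted p = 0.0513) or late regressed array 3 (adjusted p = 0.0506) moved this F test of limma just past the threshold.

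In the regressed glands CYP19A1 fell 8.49-fold against mid-late. The log2 difference was -3.09 (SE 0.59, limma adjusted p = 0.0137), with a 95% interval from -4.39 to -1.79, and it lay lower in 4 of 4 late regressed arrays. Of all genes, 13.1% were called in this comparison in either direction, 5.51% lower and 7.6% higher in late regressed glands, and 9.96% had all late regressed arrays below all mid-late arrays. By size, the fall of CYP19A1 ranked 8 among the 14132 genes. Against the mid-late mean, late regressed glands 1 to 4 were lower by 2.50-fold, 22.6-fold, 18.6-fold and 4.96-fold. Glands 2 and 3 thus carried the deepest decline. Without them the difference was -1.82 and still called (limma adjusted p = 0.0406), and its rank by size was 21. The call held whichever single array was left out. It was lost when only these 2 groups were fitted (limma adjusted p = 0.0519). It was also lost with a covariate for the mean of the NC probe sets (-2.24, adjusted p = 0.666), under which 0 of 52707 probe sets were called. That mean moved with the groups, from 3.65 to 3.75 on mid-late, 3.53 to 3.61 on late functional and 3.48 to 3.58 on late regressed arrays, and its part in the result was not tested further.

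No change was detected between the mid-late glands, the baseline, and the late functional glands. There CYP19A1 differed by 0.11 (SE 0.59, 95% interval from -1.19 to 1.41, limma adjusted p = 0.942). The sign turned without mid-late array 2 (-0.16), the dimmest gland of its group. In this comparison 1.17% of all genes were called. The interval leaves room for a change of more than 2-fold either way, so equality of these groups was not shown.

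Between late glands of the same days, CYP19A1 had the largest mean decrease of all 14132 genes, although the test across all probe sets did not call it. The late regressed mean was 9.16-fold below the late functional one (log2 difference -3.20, SE 0.59, 95% interval from -4.50 to -1.90, limma adjusted p = 0.111). SLC26A2 (-3.10) and SERPINA4 (-3.08) came next by size, closer to CYP19A1 than its SE. The rank of CYP19A1 was 2 or 3 with array weights, a 3′ to 5′ covariate or a covariate for the NC mean. It was also 2 or 3 without late functional array 4 or without late regressed array 1, 2 or 3. The comparison called 1 gene, or 0.00708% of those tested, and CYP19A1 reached an unadjusted limma p of 0.000183. All late regressed values lay below all late functional ones for CYP19A1, as for 3.28% of genes. Without late regressed array 1, the gland with the highest CYP19A1 of its group, the difference was called (-3.78, limma adjusted p = 0.00675). Without late regressed arrays 2 and 3 it shrank to -1.93 (adjusted p = 0.197) and its rank by size was 10.

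A separation of the regressed glands from all 8 other glands, in the downward direction, was found for 178 genes, 1.26% of the total. Among them CYP19A1 had the largest mean difference, -3.14, where the median of the 178 was -0.46. The gap between its brightest regressed gland and its dimmest other gland was 0.52, against a median gap of 0.05. The late regressed glands also differed more among themselves than the others did. Their SD of 1.52 exceeded that of 99.2% of genes in the same arrays, but CYP19A1 was more variable than most genes in every group, its SD exceeding that of 98.1% of genes in mid-late and 92.2% in late functional arrays. The brightest and dimmest regressed gland lay 9.03-fold apart. The corresponding spans were 2.44-fold in mid-late and 1.63-fold in late functional glands.

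HSD3B2 and STAR, genes of progesterone synthesis, are set beside CYP19A1 array by array. HSD3B2 encodes the enzyme that makes progesterone from pregnenolone. Its values were 11.64, 12.05, 11.16 and 11.78 in mid-late, 10.52, 10.43, 9.88 and 9.04 in late functional, and 8.52, 9.04, 7.93 and 8.70 in late regressed glands 1 to 4. All late functional glands already lay below all mid-late ones, though the share of all genes so ordered was not computed. HSD3B2 fell by 1.69 on the log2 scale in late functional glands (SE 0.33, limma adjusted p = 0.0435, a call kept in 9 of 24 alternatives) with a difference of -3.11 in late regressed glands (adjusted p = 0.00548). STAR, the carrier that delivers cholesterol to the inner mitochondrial membrane, was at 13.66, 13.55, 13.38 and 13.49 in mid-late and 13.63, 13.69, 13.53 and 13.15 in late functional glands. In late regressed glands it was at 13.54, 10.14, 9.68 and 11.92, so late regressed gland 1 kept a STAR value inside the range of the other groups. Its differences were -2.20 against mid-late (adjusted p = 0.0508) and -0.02 for late functional against mid-late (adjusted p = 0.993), neither called by limma. The difference from mid-late was -0.79 without late regressed arrays 2 and 3 (limma adjusted p = 0.221).

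**Figure D2:**
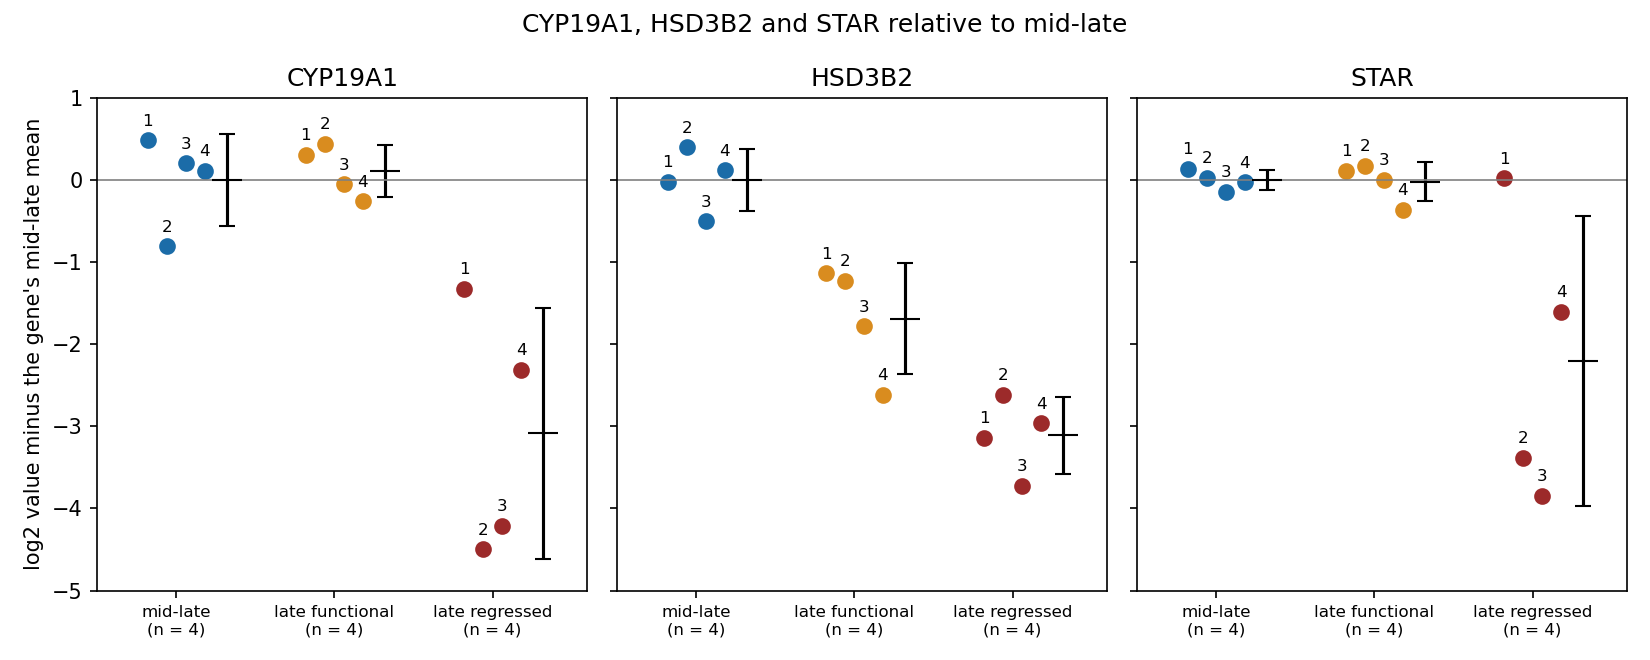
Log2 value of CYP19A1, HSD3B2 and STAR minus the gene's own mid-late mean (vertical axis) in each gland, by group (horizontal axis); points are arrays with their number and bars are group means with SD (n = 4). HSD3B2 lies lower in late functional glands already, CYP19A1 is lowest in the 4 late regressed glands, and STAR lies low in late regressed glands 2, 3 and 4 but not in gland 1.

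Within-array differences between genes compare these genes directly, because the affinity of each probe set cancels between arrays. CYP19A1 minus HSD3B2 was 0.49, -1.22, 0.69 and -0.02 in mid-late glands 1 to 4 and 1.43, 1.65, 1.72 and 2.34 in late functional ones. The groups did not overlap, and the mean difference was 1.80 (exact two-sided permutation p = 0.0286, the smallest that 4 against 4 arrays can give, adjusted p = 0.0857 over the 6 tests of this kind). In late regressed glands the values were 1.80, -1.90, -0.50 and 0.64, with a mean of 0.01 ± 1.58 beside -0.01 ± 0.86 in mid-late glands (exact permutation p = 1). CYP19A1 minus STAR was -1.54, -2.71, -1.53 and -1.73 in mid-late, and -1.68, -1.61, -1.93 and -1.77 in late functional glands. It was -3.22, -2.99, -2.25 and -2.58 in late regressed glands, all below the late functional values. That difference was -1.01 (exact permutation p = 0.0286, adjusted p = 0.0857), and against mid-late it was -0.89 (exact permutation p = 0.0857, adjusted p = 0.171). None of the 6 tests passed after adjustment, and with 4 arrays a group none could have gone below 0.0286 before it.

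**Figure D3:**
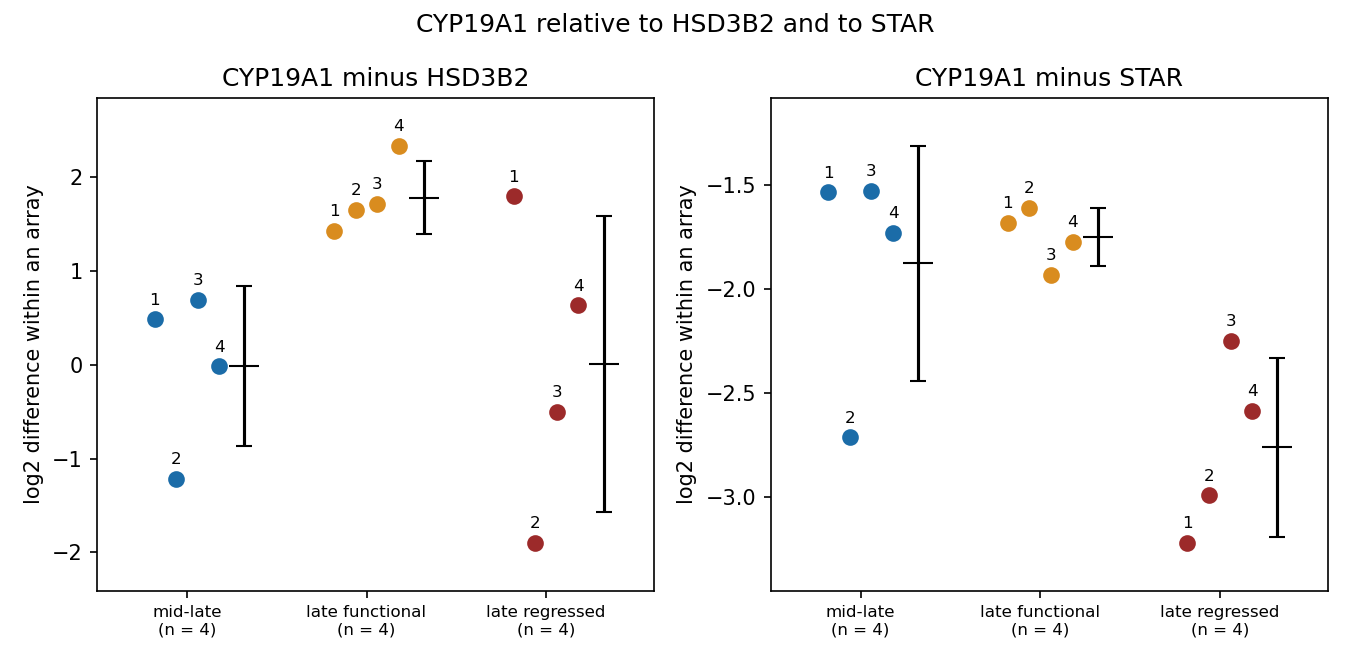
CYP19A1 minus HSD3B2 (left) and CYP19A1 minus STAR (right), as a log2 difference within each array (vertical axis), by group (horizontal axis); points are arrays with their number and bars are group means with SD (n = 4). The late functional glands lie between 1.43 and 2.34 on the left, above all mid-late glands, and the late regressed glands lie between -3.22 and -2.25 on the right, below all late functional glands.

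In a list of 14 genes around progesterone and precursor synthesis, put together with earlier results known, 9 had a probe set. Of these 4 fell and 0 rose between late regressed and mid-late glands, where 5.51% of all genes fell. These were MRAP, an accessory protein of melanocortin receptors (-3.30), HSD11B1, which interconverts cortisone and cortisol (-3.13), HSD3B2, and FDXR, which feeds electrons to mitochondrial P450 enzymes (-1.66, limma adjusted p = 0.0354). The median over the 9 was -1.66, beside -0.02 over all genes. MRAP and HSD11B1 do not themselves make progesterone or its precursors, and without them 2 of 7 fell and the median was -0.62. In late functional glands HSD3B2 alone of the 9 was called, and between the late groups 0 of 9 were. The call of FDXR was kept in 10 of 24 alternatives. Without late regressed arrays 2 and 3 it was lost (-0.80, limma adjusted p = 0.191), and the median over the 9 was -0.79. The MRAP difference shrank to -2.14 and kept its call (limma adjusted p = 0.0434).

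CYP17A1, whose product makes the androgens that aromatase uses, was not lower in the late glands. Its values were 8.36, 7.96, 7.97 and 8.54 in mid-late, 8.67, 8.98, 8.73 and 8.61 in late functional, and 8.60, 8.60, 9.33 and 8.73 in late regressed glands. Every late gland of either group lay above every mid-late gland, though the share of all genes so ordered was not computed. The differences from mid-late were 0.54 in late functional (limma adjusted p = 0.142) and 0.61 in late regressed glands (adjusted p = 0.0515), and 6 of 24 alternatives called the latter. Of 2 CYP17A1 probe sets, 0 were called in these comparisons. Without late regressed arrays 2 and 3 the late regressed difference was 0.46 (limma adjusted p = 0.168). HSD17B1, which reduces oestrone to the stronger oestradiol, ranged from 5.60 to 6.81 over all arrays and differed from mid-late by 0.23 in late regressed and -0.27 in late functional glands, neither called. POR, the flavoprotein that passes electrons to aromatase, differed by -0.30 and 0.21 and was not called either, although 1 of its 4 probe sets was called in late regressed against mid-late glands. Its values on late regressed arrays 2 and 3, 8.26 and 8.73, were the lowest of the 12. Without these arrays the POR difference of late regressed from mid-late turned to 0.12 (limma adjusted p = 0.781).

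The wider list of oestrogen synthesis and turnover had 13 of 21 genes with a probe set, not counting CYP19A1, and 3 fell, 0 rose and 10 were not called in late regressed against mid-late glands, where 13.1% of all genes were called and 5.51% fell. CYB5A, a haem protein that aids the lyase step of CYP17A1, fell by 0.85. HSD17B8, which oxidises oestradiol, fell by 0.71, and PGRMC1, a haem-binding membrane protein that associates with P450 enzymes, fell by 0.64. The PGRMC1 values were 11.59, 11.64, 11.41 and 11.51 in mid-late, 11.51, 11.70, 11.34 and 11.79 in late functional, and 11.06, 10.89, 10.60 and 11.04 in late regressed glands. Its late functional values overlapped the mid-late ones and its regressed values lay below all 8 others, as those of CYP19A1 did. Regressed values below all 8 others were found for 1.26% of all genes. The 4 PGRMC1 probe sets were all called. The median of the 13 was -0.16 beside -0.02 over all genes. In late functional against mid-late and in late regressed against late functional glands 0 of 13 were called. Without late regressed arrays 2 and 3, PGRMC1 (-0.49, limma adjusted p = 0.0699) and CYB5A (-0.64, adjusted p = 0.0601) lost their calls and HSD17B8 kept its own. Renewed quantile normalization added HSD17B7 and HSD17B4 to the genes that fell, and median centring added CYP17A1 as a gene that rose.

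Oestrogen receptors showed little signal or little change beside the fall of aromatase. ESR1 values ran from 3.20 to 3.74, below the low-signal level on every array, and those of the progesterone receptor PGR, a classical oestrogen target, from 3.42 to 4.13, so changes in them could not be read. ESR2 lay between 5.17 and 5.46 and differed from mid-late by -0.10 in late regressed (limma adjusted p = 0.352) and -0.14 in late functional glands (adjusted p = 0.301), and 1 of its 3 probe sets was called in the former. Of 18 receptors and known targets 14 had a probe set, 4 of them at low signal on every array. The cyclin CCND1 fell (-1.04), the binding protein IGFBP4 rose (0.60) and 12 did not pass between late regressed and mid-late glands. These 2 calls among 14 genes are near the 13.1% called among all genes, and CCND1 kept its call in 10 of 24 alternatives. Neither call held without late regressed arrays 2 and 3 (CCND1 -0.48, limma adjusted p = 0.200, and IGFBP4 0.35, adjusted p = 0.205).

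Among factors known to act on CYP19A1, the nuclear receptors of its ovarian promoter had lower means in late regressed than in mid-late glands, without a call. NR5A2 (LRH-1) was at 9.57, 9.72, 9.61 and 9.42 in mid-late, 9.46, 9.56, 9.39 and 8.86 in late functional, and 9.25, 8.15, 8.54 and 9.28 in late regressed glands. Its late regressed difference was -0.78 (SE 0.24, limma adjusted p = 0.0579), which shrank to -0.32 without arrays 2 and 3, and 1 of its 3 probe sets was called. For NR5A1 (SF-1) the difference was -0.48 (adjusted p = 0.116), with 5.81 on late regressed array 2 and 6.59 to 6.94 on the other 3. Without arrays 2 and 3 the NR5A1 difference was -0.15 (limma adjusted p = 0.348). In late functional glands NR5A1 read 6.75, 6.77, 6.72 and 6.73, all below the mid-late values of 6.91 to 7.11. That difference was -0.27 (limma adjusted p = 0.471), and the share of all genes so ordered was not computed. Late regressed minus late functional was 0.12 for NR5A1 without late regressed arrays 2 and 3 (limma adjusted p = 0.875). The zinc finger factor GATA4 differed by -0.33 (adjusted p = 0.161). Its relative GATA6 fell, from 9.26, 9.30, 9.29 and 9.31 in mid-late to 8.88, 8.85, 8.34 and 8.89 in late regressed glands (-0.55, SE 0.12, limma adjusted p = 0.0180). At 9.15, 9.35, 9.14 and 9.08, the late functional glands lay above every regressed one for GATA6. GATA6 was the only one of the 26 listed factors with a probe set whose late regressed values all lay below all others. That order was found for 1.26% of all genes. For NR2F2 and CRTC2, which are described next, all late regressed values lay above all others. The share of all genes in that upward order was not computed.

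Of these 26 listed factors and signals, 3 rose, 1 fell and 22 were not called in late regressed against mid-late glands, a share near the 13.1% of all genes, and 0 were called in the other comparisons. NR2F2 (COUP-TFII), a nuclear receptor known to compete with NR5A1 at steroidogenic promoters, rose from 9.33, 9.29, 9.33 and 9.48 to 9.98, 10.11, 9.99 and 9.76 (0.60, SE 0.09, limma adjusted p = 0.00697). Late functional glands lay between 9.41 and 9.64, below every regressed gland. The CREB coactivator CRTC2 rose by 0.58 and the gonadal zinc finger factor WT1 by 0.92. For NR2F2 and WT1, 1 of 2 probe sets was called. NR2F2, CRTC2 and GATA6 kept their calls without late regressed arrays 2 and 3, and WT1 did not (0.65, limma adjusted p = 0.171). The median over the 26 was -0.21, and 0.08 without those arrays.

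**Figure D4:**
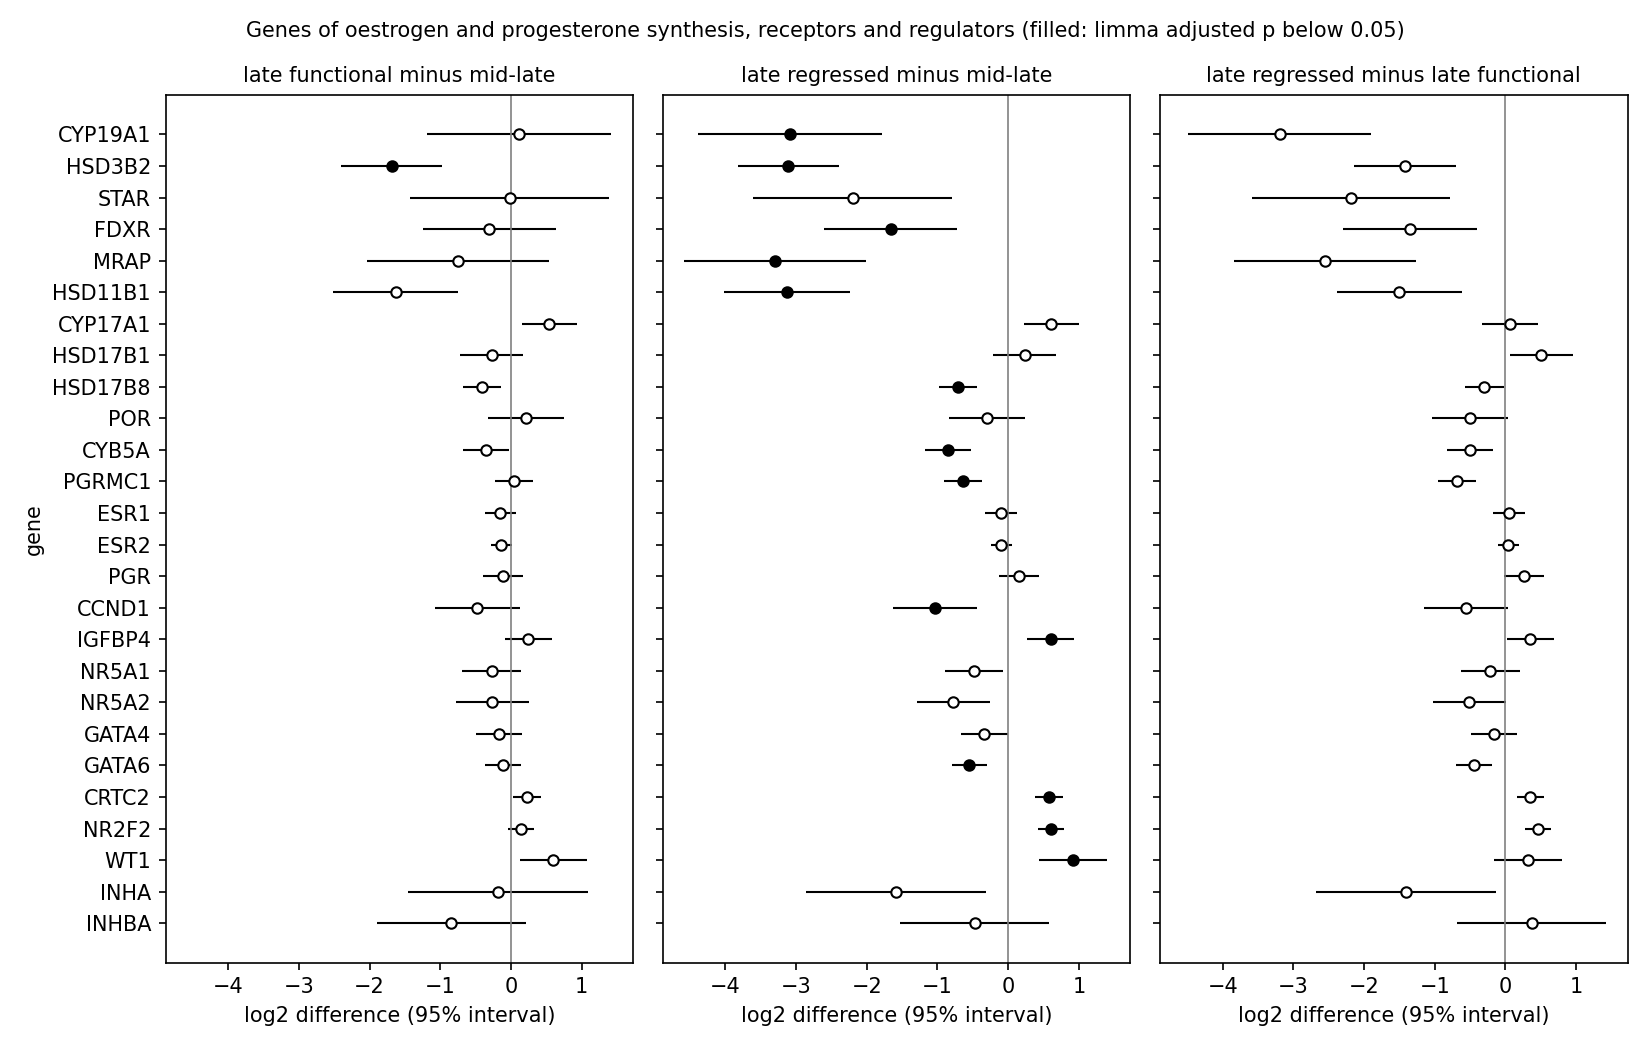
Log2 difference of group means with its 95% interval (horizontal axis) for CYP19A1 and genes of steroid synthesis, oestrogen receptors and regulators (vertical axis), in 3 panels, 1 per comparison; filled points have a limma adjusted p below 0.05. CYP19A1 and STAR lie at 0.11 and -0.02 in the first panel while HSD3B2 lies at -1.69, and no gene shown is filled in the third.

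INHA and INHBA, other genes of granulosa cells, were not called. INHA, the inhibin alpha subunit, read 12.67, 12.49, 12.49 and 12.54 in mid-late, and 12.32, 12.34, 12.26 and 12.55 in late functional glands. In late regressed glands 1 to 4 it read 12.25, 9.65, 9.49 and 12.47. Glands 1 and 4 therefore kept an INHA level near that of the other groups while their CYP19A1 was down to 10.32 and 9.33. CITED1 and GSTA1, the 2 listed granulosa markers that fell, lay below mid-late there. In glands 1 and 4 CITED1 read 5.42 and 5.34 against 6.64 to 7.42 in mid-late. GSTA1 read 5.37 and 5.83 against 6.10 to 6.56. It was also low in late functional glands, at 5.61, 5.65, 5.36 and 5.51. These 2 markers do not stand for the whole list. Without late regressed arrays 2 and 3, 0 of the 8 measured granulosa markers fell against mid-late, and their median difference was 0.03. The INHA difference from mid-late was -1.58 (limma adjusted p = 0.0982) and shrank to -0.19 without arrays 2 and 3. INHBA, the inhibin and activin beta A subunit, spread from 8.13 to 10.55 and was not called (-0.47, limma adjusted p = 0.543).

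Marker lists of the gland's cell types are given as counts and list means, for the comparison of late regressed with mid-late glands in which 13.1% of all genes were called, 5.51% lower and 7.6% higher. Of 10 granulosa markers 8 had a probe set and 2 fell, CITED1 and GSTA1, none of the 8 being at low signal on every array. The median difference of the 8 was -0.41, and 0.03 without late regressed arrays 2 and 3. The mean log2 value of the 8 ran from 7.55 to 8.20 in mid-late, 7.27 to 7.78 in late functional and 6.87 to 8.01 in late regressed glands. Of 16 macrophage markers 12 had a probe set and 0 were called. Their median difference from mid-late was 1.39 in late regressed and 1.18 in late functional glands. Without late regressed arrays 2 and 3 the late regressed median was 0.65. The macrophage list mean ran from 6.59 to 8.31 in mid-late, 8.57 to 8.75 in late functional and 7.76 to 9.49 in late regressed glands. Of 12 fibroblast markers 11 had a probe set, 4 rose and 1 fell. Their median difference was -0.18, and 0.03 without late regressed arrays 2 and 3. The fibroblast list means ran from 7.999 to 8.68 in mid-late, 8.14 to 8.42 in late functional and 8.27 to 8.60 in late regressed glands. Of 12 endothelial markers 11 had a probe set and 3 rose, with means from 8.23 to 8.38, 8.36 to 8.48 and 8.34 to 8.62 in the same order. Theca markers had 6 of 8 measured and 1 that rose, NR2F2, with means from 7.55 to 7.63, 7.58 to 7.84 and 7.55 to 7.97. Of 10 smooth muscle markers 6 were measured and 1 fell, with means from 8.53 to 8.95, 8.47 to 9.03 and 8.46 to 9.01. T and NK cell markers (3 of 10 measured) and red blood cell markers (3 of 8 measured) had 0 calls. Their means in the same order ran from 7.29 to 7.88, 6.94 to 7.62 and 6.18 to 7.55 for T and NK cells, and from 5.44 to 5.77, 5.02 to 5.42 and 4.82 to 5.52 for red cells. In the theca and red cell lists 1 marker each was at low signal on every array. The part of these cell types in the CYP19A1 result was not tested. Fitted with the control probe sets' 3′ minus 5′ signal as a further term, CYP19A1 differed by -2.76 between late regressed and mid-late glands (limma adjusted p = 0.0185), and without late regressed array 2, the array where it is high, by -2.62 (adjusted p = 0.0234).

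The genes closest to CYP19A1 over the 12 glands were chosen from 12992 genes by the mean absolute difference between log2 profiles, each centred on its own mean. The closest were TM7SF2, a sterol reductase of cholesterol synthesis (0.43), MRAP (0.44), TLCD4 (0.48), ATXN7 (0.51) and STAR (0.52). The median over all genes was 1.39, about the 1.40 that a flat profile would score, so it says little about how specific the closeness is. TM7SF2 read 10.08, 10.21, 10.13 and 10.24 in mid-late, 10.53, 10.75, 10.54 and 10.27 in late functional, and 9.76, 6.64, 6.79 and 8.70 in late regressed glands. Its late functional glands all lay above the mid-late ones, an order whose share of all genes was not computed. Every regressed gland lay below both groups, as for 1.26% of genes, but TM7SF2 was picked for its likeness to CYP19A1. The late functional difference of TM7SF2 from mid-late, 0.35, was not called (limma adjusted p = 0.773). MRAP read 9.25, 8.82, 8.54 and 8.86, then 8.42, 8.53, 7.98 and 7.55, then 7.70, 4.52, 4.31 and 5.76 in the same order, so its late functional glands already lay below all mid-late ones. That difference, -0.75, was not called (limma adjusted p = 0.529), and the share of all genes so ordered was not computed. Against mid-late, late regressed differences were -2.19 for TM7SF2, -2.33 for TLCD4 and -2.68 for ATXN7 (limma adjusted p = 0.0320, 0.0452 and 0.0417). All 3 calls were lost without late regressed arrays 2 and 3 (limma adjusted p = 0.0657, 0.252 and 0.245). In the same order, the calls were kept in 15, 5 and 8 of 24 alternatives.

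**Figure D5:**
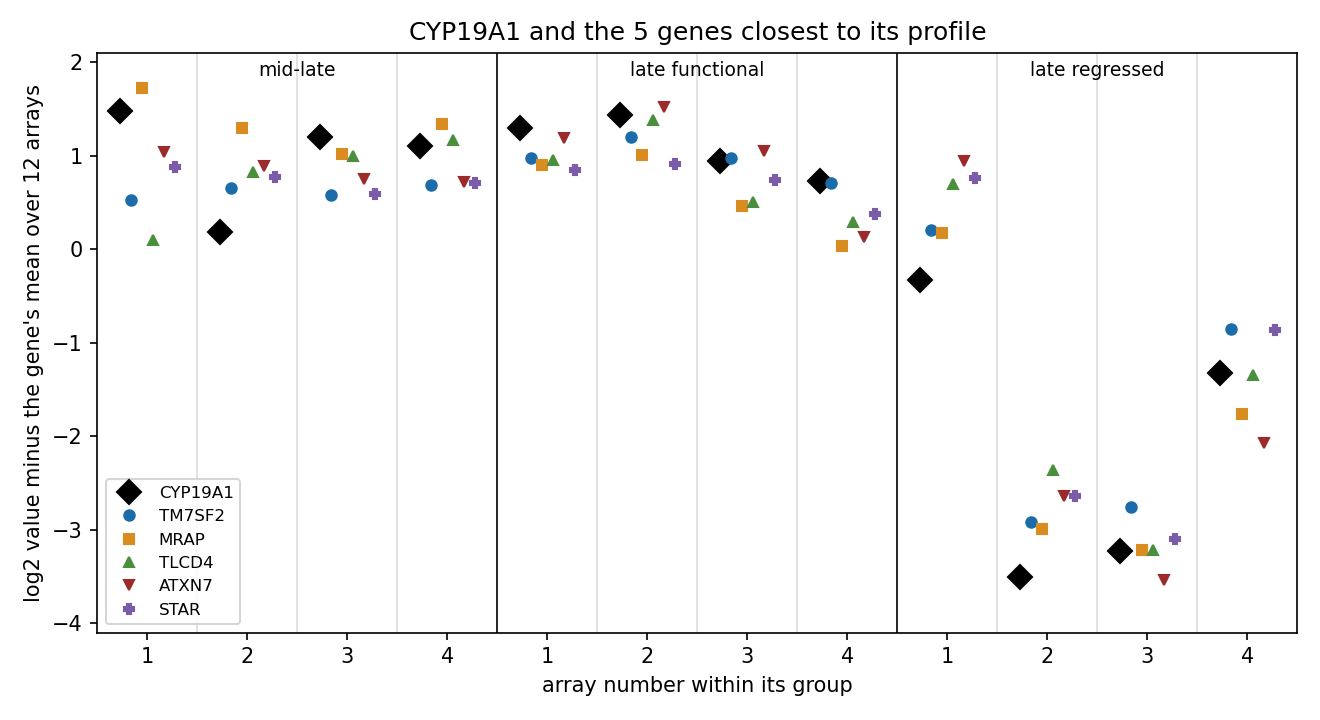
Log2 value minus the gene's mean over the 12 arrays (vertical axis) for CYP19A1 and the 5 genes with the closest profile, for each array of each group (horizontal axis); each symbol is 1 gene on 1 array. On late regressed array 1 the other 5 genes lie above CYP19A1, and on arrays 2 and 3 all 6 lie far below their means.

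This ranking leans on the 2 arrays with the deepest decline. After each group's own mean was removed, the closest genes were FGF9 (0.20), TM7SF2 (0.21), GSTA3 (0.28), MRAP (0.28) and STAR (0.29), of which 3 are shared with the ranking over all arrays. The median over genes was 0.65 there, and a flat profile would also score 0.65. FGF9, a fibroblast growth factor, read 7.03, 5.92, 6.80 and 7.11 in mid-late and 7.42, 7.27, 7.40 and 6.90 in late functional glands. Its late regressed values were 6.91, 4.42, 5.02 and 6.53. It thus shared the low mid-late gland 2 and the low regressed glands 2 and 3 with CYP19A1, but its group difference was not called (log2 difference -0.998, limma adjusted p = 0.187). GSTA3, a glutathione transferase that also isomerises steroid intermediates, fell by 1.91 (limma adjusted p = 0.0227), and by 0.93 without late regressed arrays 2 and 3 (adjusted p = 0.0431). When late regressed arrays 2 and 3 were left out, 0 of the 5 closest genes over 12 arrays stayed among the closest 5, and TM7SF2 held place 6. Ranked by Pearson correlation instead, 1 of the 5, TM7SF2, was shared.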

How the data were processed

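The deposited table holds log2 values of one-colour Affymetrix arrays, 1 array per corpus luteum, made by the authors with RMA per the submitters' processing notes. The sources used here do not give its version or settings. The value range fits a log2 scale. Of 52865 probe sets, 158 array controls were left out. Symbols came from the platform annotation, and a gene was represented by the brightest of its probe sets, by mean over all arrays. Groups and replicate numbers came from the sample titles, which call the arrays biological replicates.

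All 12 arrays entered 1 limma fit of group means (limma 3.58.1, R 4.3.3), with Benjamini-Hochberg adjustment over 52707 probe sets and no further term. Scripts were first tested on simulated data with known changes. Within-array differences were compared with exact permutation tests. The number of arrays limits the precision, and scan batches were not analysed here. A between-array step in such processing would hide a change in total RNA.

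Named genes comprised CYP19A1, a panel of 15 luteal and oestrogen genes where measured (FOXL2 has no probe set under its symbol), members of 4 pathway lists called in any comparison, and the 5 closest genes by each of 2 rankings. The gene and all lists were chosen with earlier results of these data known. Alternatives were filters on signal, centring, renewed quantile normalization, a trended prior, fewer groups, a replicate block, array weights, an RNA quality covariate, a 2-fold minimum and leaving out arrays. Leaving out late regressed arrays 2 and 3, the NC filter and the NC covariate were added after seeing the data. A mean over several probe sets was not run, because CYP19A1, HSD3B2 and STAR have 1 each.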

Additional observations from a re-analysis of the deposited data

Results flagged for a closer look

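In 5 of 126 groups of 4 arrays examined, 1 array lay apart from the other 3 by Dixon's criterion, which chance meets in about 5% of groups. GATA6 read 8.34 on late regressed array 3, against 8.85 to 8.89 on the other late regressed arrays. ESR1 read 3.50 on late functional array 4 against 3.33 to 3.35, all at low signal. The 3′ minus 5′ control difference was 2.52 on late regressed array 2 against 0.46 to 0.70 on the other 3. CITED1 read 7.42 on mid-late array 2 against 6.64 to 6.76, and 5.46 on late functional array 4 against 6.68 to 6.93. CYP19A1 itself had no such array in any group.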

How the results depend on the processing

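The fall of CYP19A1 in late regressed against mid-late glands was called in 22 of 24 alternatives; the exceptions were a fit of only these groups (-3.09, limma adjusted p = 0.0519) and the covariate for the NC mean (-2.24, adjusted p = 0.666), which also ended the F test (adjusted p = 0.324). Leaving out 1 array gave -3.67 to -2.62 for this comparison and -3.78 to -2.73 for late regressed against late functional, called by limma without late regressed array 1 alone. For late functional against mid-late the range was -0.16 to 0.27, below 0 without mid-late array 2 (-0.158) and at -1.7e-05 without late functional array 2. The F test's adjusted p from limma ran from 0.0043 to 0.0560. CYP19A1 relative to HSD3B2 ran from -0.57 to 0.66 for late regressed against mid-late and turned negative without mid-late array 2 (-0.38), late regressed array 1 (-0.57) or array 4 (-0.19). Without late regressed arrays 2 and 3 it was 1.23. Relative to STAR, late functional against mid-late ran from -0.15 (without mid-late array 2) to 0.24. The replicate block gave -3.09 (limma adjusted p = 0.0175), 0.11 and -3.20 for the 3 comparisons and changed no call of CYP19A1. Deviations of same-numbered arrays correlated at -0.16 to 0.31, above 0.1 in 5 of 12 pairs. These values cannot settle whether the numbers pair the glands. Probe sets called in late regressed against mid-late numbered 5282, and 975 without late regressed arrays 2 and 3.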

Other observations

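Some members of the lists had values of interest outside the naming rule and were chosen after their values were seen. CYP1B1, a P450 that hydroxylates oestradiol, read 5.82, 5.03, 6.21 and 6.32 in mid-late, 5.70, 6.39, 6.42 and 6.19 in late functional, and 6.23, 8.94, 9.73 and 7.12 in late regressed glands. It was highest in the 2 glands with the lowest CYP19A1, and its difference from mid-late of 2.16 was not called (limma adjusted p = 0.0502). It was 0.83 without late regressed arrays 2 and 3 (limma adjusted p = 0.228), and 1 of 3 CYP1B1 probe sets was called. CITED1, a transcriptional coactivator, read 6.73, 7.42, 6.64 and 6.76 in mid-late, 6.93, 6.77, 6.68 and 5.46 in late functional, and 5.42, 5.35, 5.06 and 5.34 in late regressed glands, and it fell by 1.60 (limma adjusted p = 0.0107). Unlike CYP19A1, it was about equally low in all 4 regressed glands. GSTA1, a glutathione transferase, was called in both late groups, falling by 0.72 in late regressed (limma adjusted p = 0.0107) and by 0.79 in late functional glands (adjusted p = 0.0327), with 1 of 2 probe sets called. Without late regressed arrays 2 and 3, limma no longer called the late regressed differences of CITED1 (-1.51, adjusted p = 0.0588) and GSTA1 (-0.72, adjusted p = 0.0525).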
